A study of Mus musculus with 30 samples.

Results

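A set of 9 named astrocyte genes, read out by symbol, was followed through the raw count table of the series, which lists 43346 mouse genes. All 9 were found by symbol and all 9 passed the filter on low counts in each comparison. They are the glutamate transporters Slc1a2 and Slc1a3, the water channel Aqp4, the gap junction protein Gja1, the folate enzyme Aldh1l1, the calcium-binding protein S100b, the intermediate filaments Gfap and Vim, and the secreted protease inhibitor Serpina3n. The exposed libraries came from female NSG mice, which are severely immunodeficient, inoculated at 6 to 8 weeks of age and given slow release estrogen pills. Each mouse received 100000 cells of a human breast circulating tumour cell (CTC) line, labelled with GFP and luciferase, in the left ventricle of the heart. Lesions were dissociated, cells without GFP were sorted as stroma, and RNA came from 50000 cells per library. Brain held 3 libraries exposed to the Brx50 line and 2 from tumour-free mice. Bone held 13 exposed libraries, 2 of Brx07 (replicate 1 from the leg, replicate 2 from the skull), 4 of Brx50 and 7 of Brx68, and 3 tumour-free ones. Lung held 7 exposed libraries, 2 of Brx07, 1 of Brx42, 3 of Brx50 and 1 of Brx68, and 2 tumour-free ones. For the tumour-free mice the sources used here give neither age nor strain nor estrogen treatment. Since the labels do not name the mouse behind each library, p-values cover the spread between libraries alone, which may be technical. Both Brx07 bone libraries carry 1 label code, and some codes recur across tissues; their meaning is not given.

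Astrocytes are glia that take up glutamate through Slc1a2 and Slc1a3, buffer water and potassium at their end feet, where Aqp4 sits, and couple to each other through Gja1 channels. After injury, inflammation or tumour growth they become reactive: Gfap and Vim filaments accumulate, and Serpina3n is among the transcripts known to rise most. None of the genes is exclusive to astrocytes. Vim is found in most mesenchymal cells, Gja1 in bone-forming cells and fibroblasts, Slc1a2, Slc1a3 and Aqp4 in retinal or olfactory supporting cells, and S100b in other glia and in supporting cells of the pituitary.

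In the GRCm38 mouse genome (GENCODE M21), Gfap (ENSMUSG00000020932) lies at chr11:102887336-102900912 on the minus strand, Slc1a3 (ENSMUSG00000005360) at chr15:8634124-8710764 on the minus strand, and Serpina3n (ENSMUSG00000021091) at chr12:104406729-104414329 on the plus strand. Their promoter windows from RefSeq (GRCm38.p6), 280 bases from 250 before to 30 after the annotated start, are shown because Gfap and Serpina3n are the reactivity genes most used to describe astrocytes and Slc1a3 is a transporter whose window also holds the motif searched. STAT3, a transcription factor of astrocyte reactivity, is known to bind TTCNNNGAA, and that motif is in capitals. The motif reads the same on both strands. The Gfap window is chr11:102897171-102897450 (minus strand), the Slc1a3 window chr15:8710778-8711057 (minus strand) and the Serpina3n window chr12:104406458-104406737 (plus strand).
Gfap: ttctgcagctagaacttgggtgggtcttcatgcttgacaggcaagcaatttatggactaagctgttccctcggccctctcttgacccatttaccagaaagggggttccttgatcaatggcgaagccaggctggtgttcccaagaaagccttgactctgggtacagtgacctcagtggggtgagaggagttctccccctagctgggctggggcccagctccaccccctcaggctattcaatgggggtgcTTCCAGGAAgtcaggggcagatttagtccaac
Slc1a3: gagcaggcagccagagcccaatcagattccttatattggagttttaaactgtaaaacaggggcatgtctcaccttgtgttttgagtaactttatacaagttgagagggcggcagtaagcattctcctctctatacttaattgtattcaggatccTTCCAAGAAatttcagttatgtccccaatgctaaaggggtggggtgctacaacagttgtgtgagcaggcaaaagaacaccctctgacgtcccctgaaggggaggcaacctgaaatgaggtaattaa
Serpina3n: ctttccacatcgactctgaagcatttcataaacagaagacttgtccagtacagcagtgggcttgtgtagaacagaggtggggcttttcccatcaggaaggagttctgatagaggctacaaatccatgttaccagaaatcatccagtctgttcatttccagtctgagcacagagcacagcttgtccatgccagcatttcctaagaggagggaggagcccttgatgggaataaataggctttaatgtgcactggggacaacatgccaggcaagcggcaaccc
Gfap held 1 match, with its first base at position -2 from the start, and Slc1a3 held 1 match at position -96. Serpina3n held none in this window. Of 32851 mouse promoters of the same length, 7.83% held the motif. The AP-1 motif TGANTCA, which also reads the same on both strands and shares no position with the STAT matches, was found in the Gja1 window alone among the 8 windows searched, at position -19, and in 7.46% of all promoters. The windows of Aldh1l1, Slc1a2, S100b and Vim held neither motif, and no Aqp4 window was searched. Each window belongs to 1 RefSeq start per gene. Those of Gfap, Slc1a2, Aldh1l1 and Vim lie inside the GENCODE gene span, and other starts were not searched. These matches describe letters in the windows and nothing about binding in these cells.

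The tumour-free libraries show where the 9 genes are normally transcribed. Against tumour-free bone and lung, 7 of 9 were higher in tumour-free brain, 1 was lower and 1 did not pass an adjusted p of 0.05 (edgeR's quasi-likelihood test with Benjamini-Hochberg adjustment over all genes). In that comparison 39.3% of tested genes were higher and 36.7% lower. Slc1a2 stood at 4455 and 4119 CPM (counts scaled to the library total, the usual edgeR unit) in brain, at 3.80 to 4.39 CPM in 3 bone libraries and at 10.1 and 10.4 CPM in lung. Its log2 difference was 9.21 (SE 0.15, edgeR adjusted p = 6.41e-13). The differences of Aqp4, Gfap and S100b were 9.08 (SE 0.22), 8.78 (SE 0.24) and 7.07 (SE 0.18), all on the log2 scale. Slc1a3, with 5.57 (SE 0.15), Aldh1l1, with 2.73 (SE 0.21), and Gja1, with 1.66 (SE 0.15), were less restricted to brain. Gja1 in particular stood at 263 and 321 CPM in brain and at 204 to 282 CPM in tumour-free bone, where the libraries overlapped with brain. Vim was lower in tumour-free brain, at 52.9 and 77.8 CPM, than in bone, at 1217 to 1458 CPM, or lung, at 1865 and 2295 CPM (log2 difference -4.82, SE 0.22, edgeR adjusted p = 6.97e-10). Serpina3n was at 16.3 and 18.5 CPM in brain, 10.8 to 16.2 CPM in bone and 26.1 and 31.7 CPM in lung, and its log2 difference of -0.38 (SE 0.18) had an edgeR adjusted p of 0.0685. Over 13 alternatives that adjusted p ran from 0.0189 to 0.306.

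**Figure D1:**
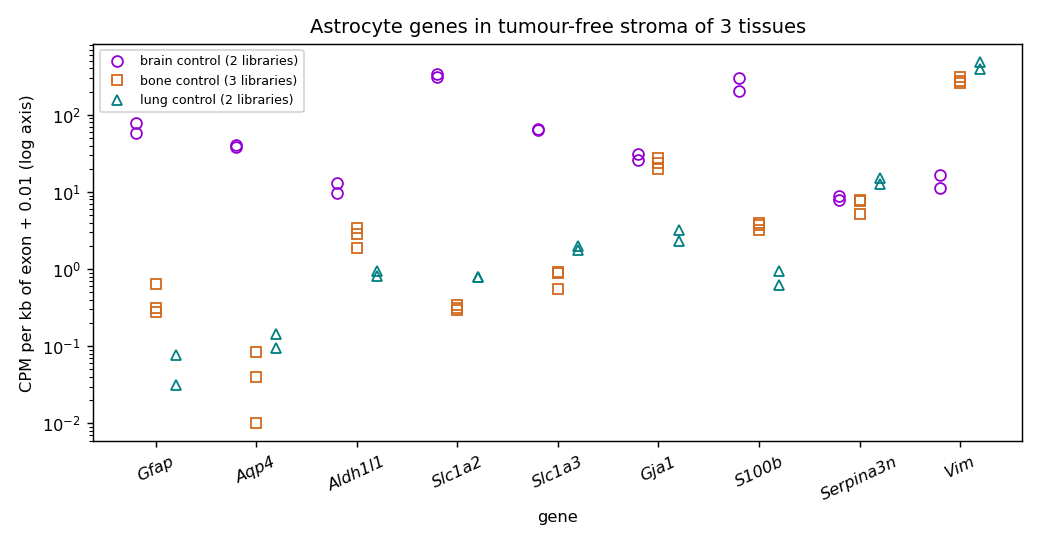
Levels of the 9 genes in tumour-free brain (2 libraries), bone (3) and lung (2), as CPM per kb of exon plus 0.01 on a log axis, 1 point per library. Slc1a2, S100b, Gfap, Slc1a3 and Aqp4 stood far above bone and lung in brain, while Vim stood lower there.

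Per kb of merged exon, which allows levels of different genes to be compared, Slc1a2 ranked first in tumour-free brain at 326 ± 18.1 CPM per kb (SD, n = 2). S100b followed at 253 ± 72.9 CPM per kb, and the SDs of these 2 genes met, although no S100b library reached a Slc1a2 library. Gfap, at 68.1 ± 13.4, and Slc1a3, at 64.2 ± 1.51 CPM per kb, did not differ beyond their spread. Aqp4 came next at 39.8 ± 2.02, then Gja1 at 28.5 ± 4.01 CPM per kb. Vim, at 13.8 ± 3.71, and Aldh1l1, at 11.4 ± 2.49, overlapped, and Serpina3n was lowest at 8.43 ± 0.77 CPM per kb. S100b shares its locus with Dip2a on the other strand, and Serpina3n has close paralogs. The strand setting and the treatment of reads matching several genes are not given, so both levels are uncertain to that extent.

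In the exposed brain, no member passed the edgeR threshold, and 4 of 9 had a fitted difference above 0 (median log2 difference -0.01). Without exposed library 1 that count was 8 of 9 (median 0.35), without library 3 or control 2 it was 6 of 9 (0.15 and 0.18), and without library 2 the median was -0.56. Vim was above both controls in every exposed library and Slc1a2 below both in every one. Slc1a3, Aqp4, Gja1, Aldh1l1, Gfap and Serpina3n lay above them in some exposed libraries and below in others, and S100b lay above them or between. Total counts ran from 4289012 to 9685820 in exposed and 6270956 to 7504650 in control brain. Genes detected numbered 16344, 19139 and 23074 in exposed libraries 1, 2 and 3, against 23736 and 24146 in the controls. Across all 16734 genes tested, 1 gene (0.00598%) passed, and it was Pomc, the pituitary hormone precursor, named here after its value was seen (169, 163 and 122 CPM against 2.39 and 2.67 CPM, log2 difference 5.84, SE 0.32). At an unadjusted p under 0.05, 1 member (Vim) was higher and none lower, beside 9.14% of all genes higher. DESeq2 called 1 member higher (Vim), beside 4.18% of the genes it tested, and limma-voom with quality weights also called 1 (Vim), beside 4.43%. Groups did not overlap for 1 member on the higher side (Vim) and 1 on the lower side (Slc1a2), where the shares of all genes were 19.9% and 18.6%. Both counts are near those shares for a list of 9. In sorted bulk cells, fewer cells of a type and less RNA per cell cannot be told apart.

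**Figure D2:**
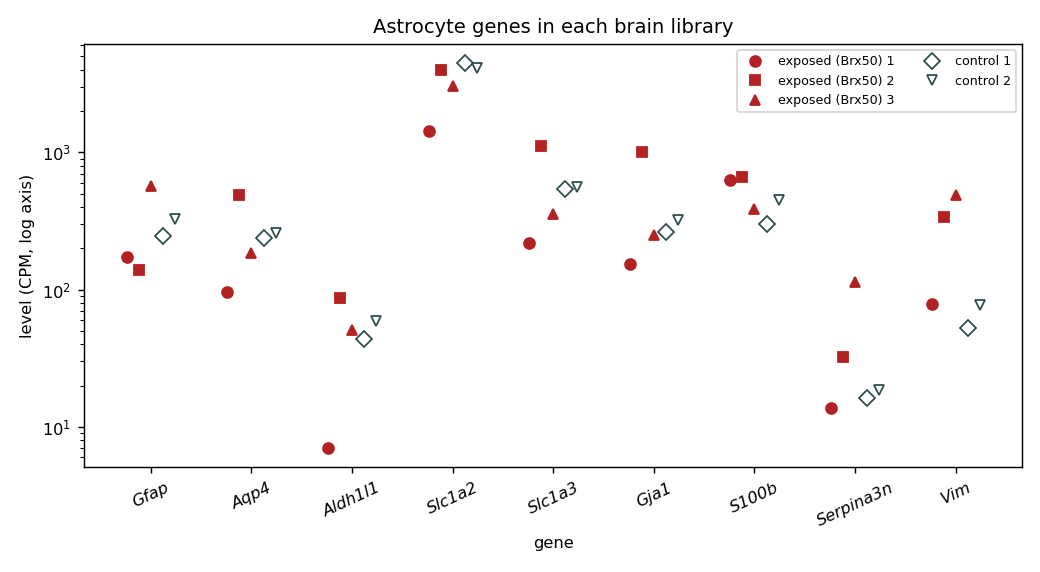
Level of each of the 9 genes in CPM on a log axis in the 3 exposed (filled) and 2 control (open) brain libraries. Exposed library 1 was lowest for 6 genes, Aldh1l1 most of all, and exposed library 2 was highest for Aqp4, Aldh1l1, Slc1a3, Gja1 and S100b.

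Slc1a2, the main glutamate transporter of the forebrain, stood at 1433, 4002 and 3056 CPM in exposed libraries 1, 2 and 3 and at 4455 and 4119 CPM in the controls. All 3 exposed libraries were below both controls, though library 2 only narrowly so. The log2 difference was -0.67 (SE 0.48, edgeR adjusted p = 0.581). Slc1a3, the transporter that is also abundant in radial glia and cerebellar astrocytes, stood at 220.1, 1104 and 357 CPM against 539 and 557 CPM. Library 2 was above the controls and the other 2 were below, which left a log2 difference of -0.05 (SE 0.63). The count of Slc1a3 reads per Slc1a2 read was 0.154, 0.276 and 0.117 in the exposed libraries and 0.121 and 0.135 in the controls, so library 2 also differed in the balance of the 2 transporters.

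Aqp4, the water channel of astrocyte end feet, stood at 96.8, 487 and 184 CPM against 239 and 257 CPM, a log2 difference of -0.04 (SE 0.60). Library 2 was again above the controls and libraries 1 and 3 below. Gja1, which encodes connexin 43, followed that order with 153, 1003 and 249 CPM against 263 and 321 CPM. Its log2 difference of 0.59 (SE 0.74) came from library 2, and without it the difference was -0.56. Aldh1l1, widely used to mark astrocytes, stood at 6.99, 87.1 and 51.0 CPM against 43.4 and 59.3 CPM. Its value in library 1 rested on few reads in the smallest library, and its log2 difference was -0.15 (SE 0.81). S100b stood at 633, 663 and 386 CPM against 299 and 452 CPM. Libraries 1 and 2 were above both controls and library 3 lay between them (log2 difference 0.52, SE 0.35, edgeR adjusted p = 0.554).

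Summed CPM of 5 pituitary hormone genes was 2002, 1483 and 664 in the exposed and 10.2 and 10.5 in the control brain libraries, with library 3 lowest of the exposed ones for this sum as for S100b. Its part in the S100b values was not tested. Summed CPM of 8 oligodendrocyte genes was 41396, 32202 and 24099 against 12059 and 21476, higher in every exposed library than in the controls, and that of 8 neuron genes was 2363, 640 and 1953 against 3676 and 2837. A list of 22 other astrocyte identity genes summed to 6301, 15907 and 8050 CPM against 7754 and 9793 CPM. Library 2 was the highest brain library for that list, as it was for Slc1a3, Aqp4, Gja1 and Aldh1l1. For Slc1a2 it was the highest exposed library but below both controls.

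Gfap, the filament by which reactive astrocytes are usually recognised, stood at 174, 138 and 564 CPM against 247 and 327 CPM. Library 3 was above both controls and the other 2 below, and the log2 difference was -0.01 (SE 0.63, edgeR adjusted p = 0.997). Vim, the partner filament, stood at 79.0, 339 and 485 CPM against 52.9 and 77.8 CPM. Library 1 exceeded the higher control by little, and libraries 2 and 3 by far. The log2 difference was 2.15 (SE 0.72, edgeR adjusted p = 0.318, unadjusted 0.0223). DESeq2 gave 2.13 with an adjusted p of 0.0242 and limma-voom 2.41 with 0.0300; over 11 alternatives the adjusted p ran from 0.0242 to 1.00. Serpina3n stood at 13.8, 32.1 and 114 CPM against 16.3 and 18.5 CPM. Library 1 was below both controls and library 3 the highest. Its log2 difference was 1.57 (SE 0.84, edgeR adjusted p = 0.468), and 0.30 without library 3.

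Vim is not confined to astrocytes, and the summed markers of fibroblasts, macrophages, neutrophils and epithelium were above both controls in every exposed library. Endothelial genes, at 502, 709 and 325 CPM against 338 and 504, were not. Nor were pericyte genes, at 537, 581 and 306 CPM against 402 and 506, and neuron genes were below both controls. Of the sums given in this paragraph, only the fibroblast sum followed the order of Vim among the exposed libraries. The macrophage, neutrophil and epithelial sums were highest in library 2. Summed CPM of 7 fibroblast genes was 227, 1524 and 1963 against 137 and 136, with the exposed libraries in the same order as for Vim. All 7 fibroblast genes were detected in libraries 2 and 3 and in the controls, and 6 in library 1. That of 8 macrophage genes was 1792, 2907 and 1098 against 339 and 546, with all 8 detected in each library. That of 8 neutrophil genes was 25.2, 3574 and 118 against 16.6 and 17.6, and mouse epithelial genes summed to 16.6, 84.2 and 47.8 against 5.42 and 10.7. The part of these cells in the Vim and Serpina3n values was not tested. How human reads were kept apart from mouse reads is not given, and Vim is strongly conserved.

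**Figure D3:**
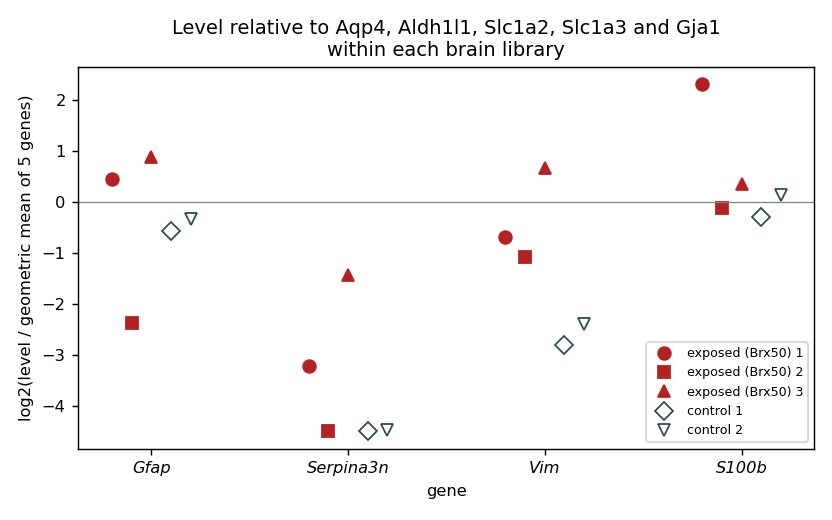
Level of Gfap, Serpina3n, Vim and S100b in each brain library, as log2 of its CPM over the geometric mean CPM of Aqp4, Aldh1l1, Slc1a2, Slc1a3 and Gja1 in that library. Vim lay above both controls in all 3 exposed libraries, while Gfap fell on either side.

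Since the identity genes themselves varied between libraries, the other 4 genes were also set against them within each library. The geometric mean of Aqp4, Aldh1l1, Slc1a2, Slc1a3 and Gja1 was 127, 716 and 303 CPM in the exposed and 366 and 408 CPM in the control libraries. On the log2 scale relative to that mean, Gfap was 0.46, -2.37 and 0.90 in the exposed libraries against -0.57 and -0.32. Libraries 1 and 3 were thus above the controls and library 2 below. Vim was -0.68, -1.08 and 0.68 against -2.79 and -2.39, above both controls in each exposed library. Serpina3n was -3.20, -4.48 and -1.42 against -4.49 and -4.46, where library 2 lay between the controls. S100b was 2.32, -0.11 and 0.35 against -0.29 and 0.15. The highest relative values of Gfap, Vim and Serpina3n were all in library 3, and that of S100b was in library 1.

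Other genes of the reactive programme were drawn from published astrocyte lists that entered with earlier results of these data known, so their direction is described and not tested as a list. Beside 51.6% of all tested genes and a median log2 difference of 0.03, 16 of 22 other identity genes had a fitted value above 0, with a median of 0.34. By limma-voom that number was 6 of 22 and the median -0.26, and without exposed library 2 it was 4 of 22 and -0.46. The counts were 10 of 10 for reactive genes shared between injury models (median 1.68), 9 of 10 tested of 12 for those known from inflammation (1.97), 9 of 9 tested of 12 for those known from ischaemia (1.36) and 10 of 11 for further reactive genes (1.26). The low count filter can admit a gene through the exposed libraries alone. Without that filter the counts for inflammation and for ischaemia were each 10 of 11 tested, with medians of 1.97 and 1.33. None of the genes in these lists passed in edgeR with the filter. At an unadjusted p under 0.05, 6, 7, 4 and 5 of the genes in the 4 reactive lists were higher, beside 9.14% of all genes. DESeq2 called 4 in each list, all higher, beside 4.18% of all genes, and limma-voom called 3, 6, 4 and 5, beside 4.43%. Markers of macrophages and fibroblasts were higher in the same libraries. Of the other identity genes, none was called by DESeq2 or limma-voom, and 1 was lower at an unadjusted p under 0.05. Leaving out exposed library 3 moved the median of the shared reactive genes to 0.66 and that of the further reactive genes to 0.85. Leaving out control 2 moved the median of the genes known from ischaemia to 2.37, and leaving out library 1 moved that of the identity genes to 0.66. Without control 1 or control 2 the latter was 0.13 and 0.54. The genes named below had the highest mean CPM of their list over all brain libraries. A gene high in exposed libraries alone could thus enter, so their direction is described only.

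Among the most abundant identity genes, Apoe, the lipid carrier, stood at 1651, 3096 and 2011 CPM in exposed brain against 1110 and 1471 CPM in the controls, with no overlap (log2 difference 0.74, SE 0.39, edgeR adjusted p = 0.464). Glul, the glutamine synthetase that works on glutamate taken up by Slc1a2, overlapped, at 1133, 1624 and 1142 CPM against 1315 and 1388 CPM. Sparcl1, a secreted matrix protein of astrocytes, also overlapped, at 856, 1890 and 1186 CPM against 1372 and 1715 CPM. Of the shared reactive genes, Lcn2, an iron-carrier binding protein also made by neutrophils, was at 2.56, 270.5 and 31.7 CPM against 0.16 and 1.47 CPM, with library 2 highest, as for the neutrophil genes. Cd44, the hyaluronan receptor, was at 15.6, 106 and 57.3 CPM against 11.6 and 11.9 CPM, and Cp, which encodes ceruloplasmin, at 48.7, 52.0 and 77.6 CPM against 30.8 and 33.7 CPM. Every exposed library was above both controls for these 3 genes. That held for 19.9% of all genes tested. It held for 7 of 10 shared, 6 of 10 inflammation, 5 of 9 ischaemia and 7 of 11 further reactive genes. On the lower side, 1 inflammation gene did not overlap, beside 18.6% of all genes.

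The genes known from inflammation included H2-D1, an MHC class I heavy chain, at 45.2, 106 and 87.1 CPM against 10.4 and 15.6 CPM (log2 difference 2.55, SE 0.43, edgeR adjusted p = 0.210). Gbp2, an interferon-induced GTPase, was at 21.7, 29.9 and 44.5 CPM against 5.90 and 8.39 CPM, again without overlap. Srgn, a proteoglycan of blood cells, was at 9.09, 53.1 and 55.4 CPM against 4.78 and 9.19 CPM, where library 1 lay between the controls. Of those known from ischaemia, Cd14, a receptor for lipopolysaccharide that is abundant in macrophages, was at 63.4, 153 and 102 CPM against 9.89 and 20.7 CPM. Ptgs2, the inducible cyclooxygenase, was at 13.3, 44.9 and 46.7 CPM against 5.74 and 6.80 CPM, and Tm4sf1 at 36.1, 53.9 and 59.4 CPM against 14.2 and 23.6 CPM. These 3 genes did not overlap between the groups. Among the further genes, Stat3, the factor whose motif is shown above, was at 91.6, 153 and 186 CPM against 60.1 and 66.4 CPM (log2 difference 1.13, SE 0.33, edgeR adjusted p = 0.290). Thbs1, a secreted glycoprotein, was at 29.6, 433 and 277 CPM against 10.05 and 13.9 CPM, and Synm, a filament that assembles with Vim, was at 109, 156 and 192 CPM against 106 and 132 CPM. Synm overlapped and the other 2 did not. Several of these genes are also expressed by the macrophages, neutrophils and fibroblasts whose markers were higher in the same libraries, and the part of each was not tested.

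Bone has no astrocytes of its own, and there members were at low or broad mesenchymal levels in the controls. Several exposed bone libraries held Slc1a2 and Aqp4 far above the controls. No gene passed the edgeR threshold there (0% of 18278), and at an unadjusted p under 0.05 the members Serpina3n and Aqp4 were higher, beside 1.82% of all genes. DESeq2 called no member, beside 0.0767% of genes higher, and limma-voom called Serpina3n and S100b, beside 3.56%. Total counts ran from 7058861 to 15646947 in exposed bone and 10625392 to 12989953 in the controls.

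**Figure D4:**
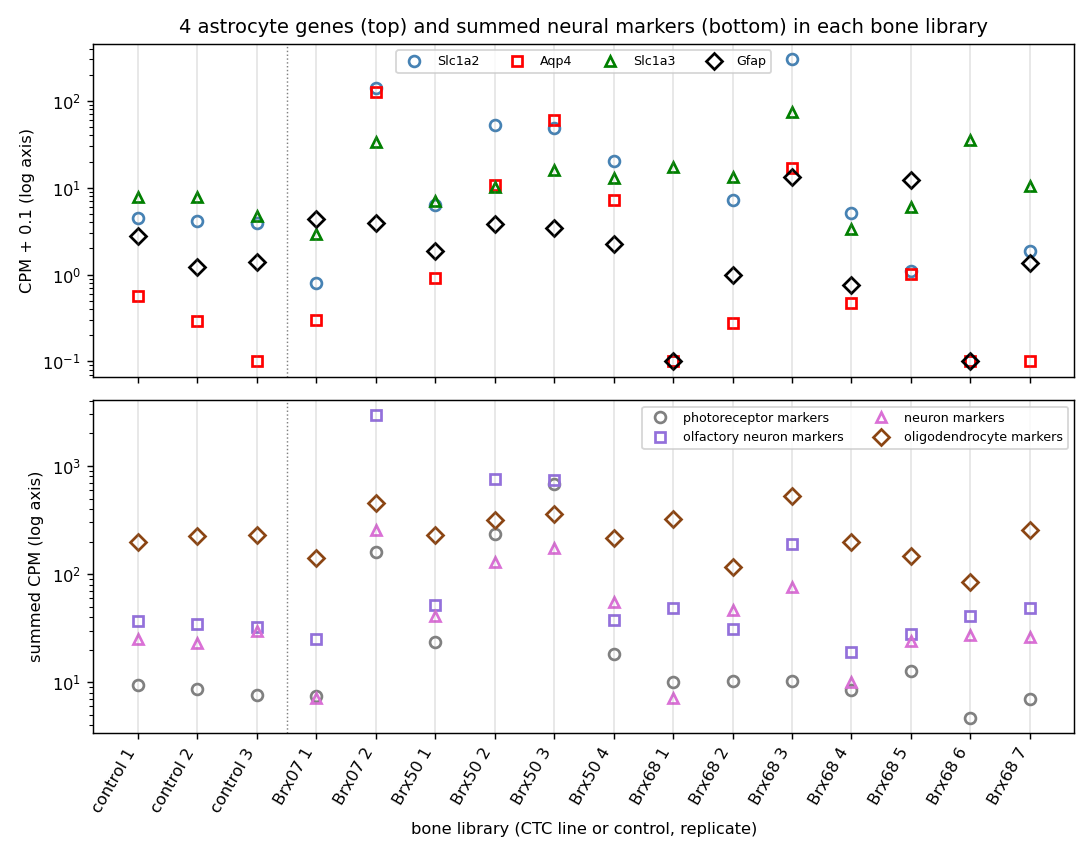
Top, CPM plus 0.1 of Slc1a2, Aqp4, Slc1a3 and Gfap in each of 3 control and 13 exposed bone libraries, on a log axis (Slc1a2, Aqp4 and Gfap coincide at 0 CPM in Brx68 1 and 6). Bottom, summed CPM of photoreceptor, olfactory neuron, neuron and oligodendrocyte markers in the same libraries. Brx07 2, Brx50 2 and 3 and Brx68 3 were high in both panels, except that photoreceptor markers in Brx68 3 were near the controls.

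Slc1a2 was at 3.80 to 4.39 CPM in bone controls. The Brx68 libraries ranged from 0 to 303 CPM with a median of 1.77, and replicate 3 was the highest of all bone libraries. The 4 Brx50 libraries held 6.29, 52.0, 48.8 and 20.1 CPM, all above the controls. Of the 2 Brx07 libraries the skull held 141 CPM and the leg 0.70 CPM. Over all 13 libraries the log2 difference was 3.46 (SE 2.12, edgeR adjusted p = 0.970), and without Brx68 replicate 3 it was 2.38.

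Aqp4 was at 0.46, 0.19 and 0 CPM in bone controls, which is 6, 2 and 0 reads. The skull library of Brx07 held 127 CPM, above the 96.8 CPM of exposed brain library 1, while the leg library held 0.20 CPM. The Brx50 libraries held 0.82, 10.6, 60.4 and 7.20 CPM, all above the controls. The 0.82 CPM of replicate 1 was 6 reads, as many as in the highest control, from a smaller library. In Brx68 replicate 3 held 16.8 CPM and the other 6 libraries 0 to 0.91 CPM, of which 3 held no read (a count of 0 allows up to 0.25 to 0.42 CPM there, from counting error alone). The log2 difference of 6.04 (SE 2.84) had an unadjusted p of 0.0484 in edgeR and an adjusted p of 0.970, and it was 5.09 without the skull library. Slc1a3 was above all 3 controls (4.63 to 7.78 CPM) in 9 of 13 exposed libraries, with a range of 2.80 to 74.6 CPM and a median of 12.9 CPM (log2 difference 1.47, SE 0.86).

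These values came with markers of other neural tissue. In the Brx07 skull library 7 olfactory neuron genes summed to 2933 CPM, and 7 photoreceptor genes to 160.2 CPM. In Brx50 replicate 2 the sums were 753 and 235 CPM, in replicate 3 they were 742 and 675 CPM, and in Brx68 replicate 3 they were 191 and 10.2 CPM. Controls held 32.4 to 36.6 CPM of the olfactory and 7.59 to 9.31 CPM of the photoreceptor genes. Neuron genes summed to 258, 128, 174 and 75.7 CPM in those 4 libraries and to 22.9 to 29.99 CPM in the controls. Omp, which marks mature olfactory neurons, was at 881, 216, 271 and 41.35 CPM there and at 0.62 to 1.30 CPM in controls. Brx50 replicate 4, with 20.1 CPM of Slc1a2, held 37.9 CPM of olfactory and 18.05 CPM of photoreceptor genes, and 705 CPM of pituitary genes against 0.38 to 1.31 CPM in controls. The part of these tissues in the Slc1a2 and Aqp4 values was not tested.

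Gfap in bone was at 2.69, 1.13 and 1.30 CPM in controls and ranged from 0 to 13.0 CPM, with a median of 2.17 CPM, over the 13 exposed libraries. The highest value was in Brx68 replicate 3, which also held the most Slc1a2, and Brx68 replicates 1 and 6 held no read of Gfap, Slc1a2 or Aqp4. In replicates 1 and 6 only 14769 and 16256 genes were detected at all, against 21233 to 25688 in the other exposed bone libraries. Brx68 replicate 5 held 12.1 CPM of Gfap beside 1.01 CPM of Slc1a2. In the skull library of Brx07 Gfap was at 3.81 CPM beside 127 CPM of Aqp4. Gfap reads per Aqp4 read were 1.03 and 1.27 in control brain and 1.80, 0.28 and 3.07 in exposed brain. They were 0.030 in the skull library, 0.35, 0.055 and 0.30 in Brx50 replicates 2, 3 and 4, and 0.78 in Brx68 replicate 3. The skull library and Brx50 replicate 3 were below every brain library. The other 3 were above exposed brain library 2 alone and below the rest of the brain libraries. Gfap in Brx50 replicate 4, at 2.17 CPM, was within the range of the bone controls. Slc1a2 reads per Aqp4 read were 18.6 and 16.02 in control brain, 14.8, 8.22 and 16.7 in exposed brain, and 1.11, 4.91, 0.81, 2.79 and 18.0 in the same 5 bone libraries. Brx68 replicate 3 was within the brain range for Slc1a2 and the other 4 were below every brain library. Mobp, a myelin gene of oligodendrocytes, was at 92.4 CPM in Brx68 replicate 3 and at 13.3 to 33.7 CPM in the other 4, against 0.28 to 0.46 CPM in controls. Mog, a second one, was at 0.32 CPM or less in all of them. The 8 oligodendrocyte genes as a list summed to 449.9, 316, 362, 217 and 523 CPM in the skull library, Brx50 replicates 2, 3 and 4 and Brx68 replicate 3, against 199 to 230.2 CPM in controls, so replicate 4 was within the control range. A list of 5 genes of Müller glia, the supporting glia of the retina, summed to 377, 129, 180.3, 406 and 440.1 CPM in the same libraries against 159.7 to 186 CPM. It was below every control in Brx50 replicate 2, among the controls in replicate 3, and highest, at 741 CPM, in Brx68 replicate 6. That library held no Slc1a2 or Aqp4 read, and 3 of the 5 genes were detected in it. A list of 5 genes of olfactory supporting cells summed to 940, 77.6, 532, 86.7 and 136 CPM in the same 5 libraries, against 23.1 to 41.2 CPM in controls. It was also 85.4 and 75.5 CPM in Brx68 replicates 6 and 7, which held no Aqp4 read. The part of either cell type was not tested.

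Serpina3n was above all 3 bone controls (10.8 to 16.2 CPM) in 10 of 13 exposed libraries, as was S100b (4.81 to 5.85 CPM in controls). For a tested gene the median number of such libraries was 5, and 4.71% of tested genes reached 10 or more. Serpina3n stood at 6.51 and 118 CPM in Brx07 (leg and skull), at 16.1 to 78.3 CPM in Brx50 and at 16.03 to 294 CPM in Brx68, where replicates 2, 3 and 6 held 211, 277 and 294 CPM. The log2 difference was 2.81 (SE 1.10, edgeR adjusted p = 0.970, unadjusted 0.0202). Limma-voom gave 2.17 with an adjusted p of 0.0102 and DESeq2 an adjusted p of 0.212; over 23 alternatives it ran from 0.0102 to 1.00. Summed CPM of 7 fibroblast genes was 32167, 52383 and 40636 in Brx68 replicates 2, 3 and 6, 4709 in the leg library of Brx07 and 11396 to 21361 in the controls. Brx50 replicate 1 had the highest fibroblast sum, 70569 CPM, with 78.3 CPM of Serpina3n. The part of fibroblasts was not tested.

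S100b ranged from 3.20 to 25.7 CPM in exposed bone with a median of 9.71 CPM (log2 difference 0.89, SE 0.55). Limma-voom gave 0.93 with an adjusted p of 0.0428; over 23 alternatives the adjusted p ran from 0.0428 to 1.00. Gja1, which bone cells use for coupling, ranged from 73.8 to 987 CPM with a median of 321 CPM against 204 to 282 CPM in controls, and Aldh1l1 from 3.60 to 28.7 CPM against 8.47 to 15.4 CPM. Both were above the controls in some libraries and below them in others, 7 and 5 for Gja1 and 5 and 5 for Aldh1l1. Vim ranged from 726 to 3333 CPM against 1217 to 1458 CPM, with 5 libraries above and 6 below the controls. Gja1 and Vim had log2 differences of 0.74 (SE 0.72) and 0.27 (SE 0.49), and Aldh1l1 one of 0.03 (SE 0.54). Each was close to its SE or below it.

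**Figure D5:**
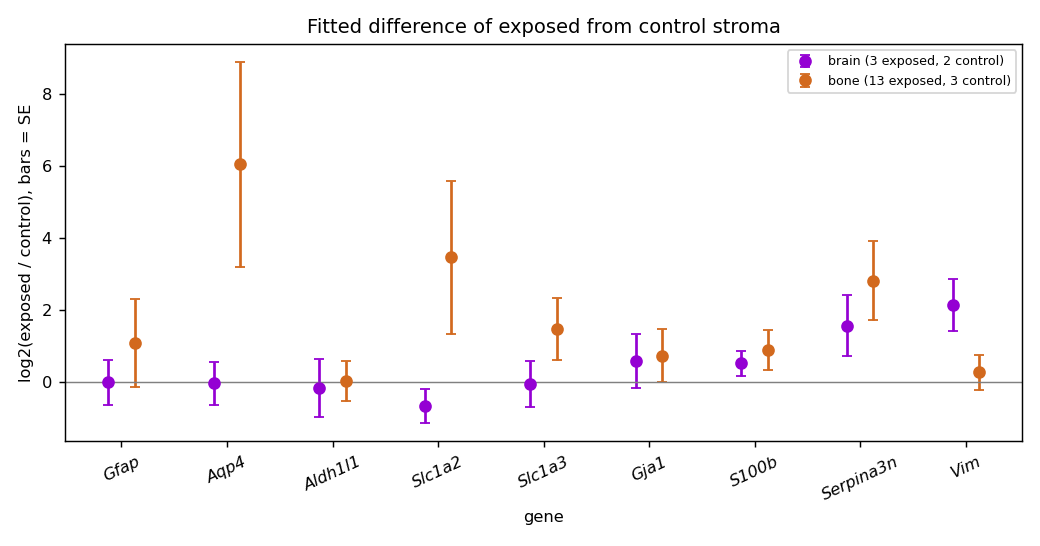
Log2 difference of exposed from control stroma for the 9 genes in brain (3 exposed, 2 control libraries) and bone (13 and 3), fitted with edgeR, bars giving the SE. The bars of Aqp4 and Slc1a2 in bone are the widest, and Vim has the highest value in brain.

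Whether the exposed-minus-control difference of a member itself differed between brain and bone was tested in a fit of all 30 libraries. Exposed brain came from Brx50 alone and exposed bone from Brx07, Brx50 and Brx68, so tissue and line cannot be told apart there. No gene passed an adjusted p of 0.05 in edgeR (0% of 21233), while 8.34% of genes had an unadjusted p under 0.05. Aqp4 and Vim were the 2 members among them. The difference of Aqp4 was lower in brain than in bone by a log2 value of -6.13 (SE 2.95, edgeR adjusted p = 0.594, unadjusted 0.0471), and that of Vim was higher in brain by 1.85 (SE 0.80, edgeR adjusted p = 0.590, unadjusted 0.0294). Limma-voom called both, with -4.48 and an adjusted p of 0.0407 for Aqp4 and 2.23 and 0.0116 for Vim, beside 7.71% of all genes. DESeq2 called neither, with adjusted p values of 0.217 and 0.234. Over 27 alternatives, among them Brx50 libraries only, the value ran from -7.28 to -4.48 for Aqp4 and from 1.25 to 2.30 for Vim. Serpina3n had fitted values above 0 in both tissues, 1.57 in brain and 2.81 in bone, and the difference of -1.26 (SE 1.45) was within its error.

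In lung, Gfap and Aqp4 stayed at trace levels, 0.08 to 1.80 and 0 to 2.61 CPM in the exposed libraries against 0.09 and 0.28, and 0.54 and 0.84 CPM, in the controls. Serpina3n was at 89.4 and 85.3 CPM in the 2 Brx07 libraries and at 116 CPM in the Brx42 library, against 26.1 and 31.7 CPM in controls. The Brx50 and Brx68 libraries held 12.6 to 31.1 CPM and none was above both controls. Vim was at 1232 to 2746 CPM against 1865 and 2295 CPM. Slc1a3 reached 53.7 CPM in the Brx42 library, against 14.9 and 17.0 CPM in the controls.

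The genes whose profile over all 30 libraries lay nearest to each member were ranked by the mean absolute difference of log2(CPM + 1) after centring, among 15197 genes averaging 1 CPM or more with a symbol other than a Gm or Rik number. The libraries share tissue, so this likeness is mostly one of tissue pattern. Gfap lay nearest to Iqsec3 (0.56), S100b to Adgrb1 (0.47), Slc1a3 to Gpm6b (0.52) and Aqp4 to Elavl3 (0.57). Slc1a2 had no near gene by comparison, with 0.92 for Rims2 and 0.93 for Kcnj10, an astrocyte potassium channel. Aldh1l1 lay nearest to Lrig1 (0.51) and Gja1 to Gli3 (0.53). Vim, nearest to Anxa2 (0.35), Tagln2 (0.37) and Ifitm2 (0.37), had the closest neighbours of the 9. Serpina3n lay nearest to its paralog Serpina3m (0.44), with which it may share reads, and then to Cp (0.58).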

How the data were processed

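RNA sequencing of 30 libraries was analysed from 1 table of raw counts per gene. The authors deposited these counts unnormalised, and the tools named, per the submitters' processing notes, are HTSeq and STAR 2.5.2b. Not given in the sources used here are the role of each listed build (hg19, GRCh37, mm10, GRCm38.p5), the annotation, the strand setting and how human reads were separated. Symbols and exon lengths came from GENCODE M21 (GRCm38), which named 42462 of 43346 IDs, and promoters from RefSeq.

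CPM are counts scaled to the unadjusted library total. Tests were two-sided edgeR 4.0.16 quasi-likelihood tests (R 4.3.3; TMM scaling, filterByExpr, Benjamini-Hochberg adjustment over all genes tested, threshold 0.05), fitted per tissue, over all 30 libraries in 6 groups for the difference between tissues, and over the 7 controls for tissue levels. The fits were tested on simulated data. DESeq2 1.42.0, limma 3.58.1 voom with quality weights, other scalings, no filter and leaving out each library were alternatives. Members, lists and tests were chosen with earlier results of these data known. Named genes are all members and, of each other astrocyte list, the 3 with the highest mean CPM over all brain libraries. That mean includes the exposed libraries, so a gene high in those alone can enter. Libraries of a group differed beyond sampling noise (chi-square over degrees of freedom at least 9.64, on genes with a pair total of 40 or more), so none was counted as a duplicate. A marker of another cell type was left out of its list and is not reported here.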

Additional observations from a re-analysis of the deposited data

Results flagged for a closer look

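Within the line groups of 4 to 10 libraries, 18 combinations of group and member were examined for a single library standing apart by its gap to the nearest other library, and 4 had one. Only bone Brx50, with 4 libraries, and bone Brx68, with 7, were of that size, so no brain or lung group was examined. Chance gives about 1 in 20 per combination. Combinations that share a library are not independent, so the count of 4 was not weighed against that rate. Aqp4 was at 60.4 CPM in Brx50 replicate 3, and at 16.8 CPM in Brx68 replicate 3. The latter library also stood apart for Slc1a2, at 303 CPM, and for S100b, at 25.7 CPM.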

How the results depend on the processing

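Counts of genes past the threshold depended on the test. In brain, 1 gene passed in edgeR, 273 without a low count filter, 712 with DESeq2, 845 with limma-voom, 0 with all 30 libraries in 1 fit, and 0 to 69 with 1 library left out (69 without Brx50 replicate 1). In bone, 0 passed, 17 with DESeq2, 2844 with limma-voom, 1 with all 30 libraries in 1 fit, and 0 to 2 with 1 library left out. For the difference between brain and bone, 0 passed, 106 with DESeq2, 1638 with limma-voom, and 0 to 22 with 1 library left out (22 without brain Brx50 replicate 3). In tumour-free tissue 14339 passed, and 13875 with a block on the replicate number in the titles. The labels do not say that equal numbers share a mouse or batch, and the brain columns carry other numbers than the titles. No paired analysis was possible for exposed against control libraries because the exposed titles carry no replicate number. Some member values changed sign. In brain limma-voom gave 0.46 for Gfap and -0.13 for Gja1, and leaving out 1 library gave ranges of -0.96 to 0.35 for Gfap, -0.84 to 0.34 for Aqp4, -0.82 to 0.35 for Aldh1l1, -0.94 to 0.32 for Slc1a3 and -0.56 to 1.00 for Gja1. In bone Aldh1l1 was -0.026 with limma-voom and -0.19 to 0.20 with 1 library left out. Between tissues Gja1 was 0.41 with Brx50 libraries only and -1.44 to 0.24 with 1 library left out, and Aldh1l1 -0.96 to 0.29. The cause was not tested. Among values for the members in brain under alternatives, 85 kept direction and side of the threshold, 12 changed sign and 2 (Vim) newly passed.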
